A study of Homo sapiens with 2 samples.

Results

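Probes were read for the mitogen-activated protein kinase (MAPK) cascades and for the DUSP, Sprouty and SPRED genes, many of which restrain them. They came from 1 array of KYSE-170 cells transfected with an oligoribonucleotide called ncRNA and 1 array of the same cells transfected with miR-210. Members were all probes whose gene symbol, after updating to the current name, begins with MAPK and a digit, MAP2K, MAP3K, MAP4K, MAPKAPK, DUSP, SPRY and a digit, or SPRED. The rule found 67 of the 12445 gene symbols on the array, read by 70 of its 24267 probes. These were 36 kinases, 26 DUSP, Sprouty and SPRED genes, and 5 other genes. Those 5 match the rule by name but are in neither group, among them the JNK scaffolds MAPK8IP1 to MAPK8IP3. The 26 are called inhibitors here, although not every DUSP acts on a MAPK, DUSP11 for example being an RNA phosphatase. The rule uses the names alone, although it was written with earlier results of these data known. The names are those of the array's annotation, so SPRED1 and SPRED3 are not analysed here.

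KYSE-170 is a cell line from an oesophageal squamous cell carcinoma, and it was grown with 5% fetal bovine serum. Both groups went through the same lipid transfection with Hiperfect and differ in the oligoribonucleotide. The labels state neither the ncRNA sequence nor the arm of miR-210, the dose or the time to harvest, and no untransfected cells were measured. Each group is 1 array of 1 cell line, so every value is a single measurement, no test across samples can be made, and a difference between cultures cannot be told apart from one between oligoribonucleotides. In total RNA of a culture, fewer cells making a transcript and less transcript per cell cannot be told apart either.

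The MAPK cascades are relays of protein kinases. A MAP4K or a small GTPase such as RAS activates a MAP3K, which phosphorylates a MAP2K, which phosphorylates a MAPK on a threonine and a tyrosine, and the MAPK passes the signal to transcription factors and to further kinases such as the MAPKAPKs. ERK is best known for growth factor signals, and JNK and p38 for stress and cytokine signals. The pathway induces its own inhibitors: several DUSP phosphatases remove phosphate from both residues of the MAPK, while Sprouty and SPRED proteins act further up, between the receptor and RAF. In squamous epithelium, ERK signalling downstream of EGFR and FGF receptors supports proliferation.

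The transfected miR-210 is a hypoxia-induced microRNA. Its mature sequences are shown because the seed, bases 2 to 8 from the 5′ end and printed in capitals, is the part of a microRNA that pairs with target transcripts; both arms are given, from RefSeq on GRCh38.p14, because the labels do not name one.
hsa-miR-210-3p: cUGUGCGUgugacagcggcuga
hsa-miR-210-5p: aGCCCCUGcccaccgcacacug
The arms have different seeds. No search for seed matches in the members' transcripts was made, since transcript sequences were not used here.

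Values are deposited intensities on a linear scale, and differences are log2 ratios, miR-210 over ncRNA, with both arrays first brought to 1 distribution by quantile normalization. The level filter kept probes whose mean log2 level was at or above that of the median probe, equal to an intensity of 37.5; where it kept several for a gene, the one with the higher mean level was used. The median probe read 39 with ncRNA and 36 with miR-210. The only error that these arrays hold is between probes. Over 251 genes with at least 2 kept probes, a single probe's log2 ratio scattered with a SD of 0.44 around its gene. The ratios of 2 probes of the same gene had a Spearman rank correlation of only 0.29. Over all 6681 genes kept, the log2 ratio had a median of 0.01 and a SD of 0.54, and 34.8% of these genes were further from 0 than the probe SD, so a ratio beyond it is common. Without normalization, on the deposited scale, the median gene stood at -0.12, a shift of all genes against which that scale has to be read.

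Of 12 squamous and general epithelial markers, 11 had a probe, and 10 of these were kept with a median log2 ratio of 0.57, 9 of them above 0. At least 2-fold higher were ITGA6, from 125 to 428 or 3.71-fold, and KRT17, from 1541 to 2736 or 2.02-fold. Of all genes kept, 3.02% were. On the deposited scale KRT17 stood at a log2 ratio of 0.83, under 2-fold. The transcription factors were lower with miR-210: SOX2 stood at -0.96, and TP63, under the level filter, read 57 and 22. The summed intensity of all 11 probes was 7187 with ncRNA and 10540 with miR-210. EPCAM, a general epithelial marker, read 4502 and 6165 of these sums. Markers of other cell types had lower sums. Of those with a probe, 2 of 7 fibroblast genes, 1 of 4 leukocyte genes and 2 of 5 endothelial genes were kept. The summed intensities of all their probes were 344 and 326, 167 and 182, and 254 and 216 for ncRNA and miR-210 in turn. The brightest of each list were DCN at 183 and 181, CD79A at 133 and 126, and VWF at 126 and 103. These were above the array medians of 39 and 36. No probe of these lists was at 0, the lowest intensity being 7. The part of the squamous markers in the results below was not tested.

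Of the 67 genes, 42 were kept, among them 19 of 36 kinases and 19 of 26 inhibitors. Of these 19 inhibitors, 9 were DUSP genes outside the MAP kinase phosphatases, DUSP12 among them. No kept kinase was at least 2-fold apart between the arrays, and 2 kept inhibitors were, DUSP12 higher and SPRED2 lower with miR-210. A difference of that size was found for 6.20% of all genes kept, upwards for 3.02% and downwards for 3.17%. At a fold of 1.5, 6 kinases (3 higher, 3 lower) and 8 inhibitors (5 higher, 3 lower) were apart, 31.6% and 42.1% of those kept, where 22.8% of all genes were (11.9% higher and 10.9% lower). The median log2 ratio was 0.04 for the kinases, with 11 of 19 above 0, and 0.20 for the inhibitors, with 12 of 19 above 0, where 50.8% of all genes lay above 0. On the deposited scale the kinase median turned to -0.06 and the inhibitor median was 0.09, which is 0.06 and 0.20 above the median of all genes on that scale. There the counts at 1.5-fold were 2 higher and 3 lower for the kinases and 4 higher and 4 lower for the inhibitors. On that scale 7.94% of all genes were higher and 15.5% lower by that fold. At 2-fold that scale left SPRED2 alone, where 2.09% of all genes were higher and 4.76% lower. Without the level filter, the inhibitor median was 0.082 over 26 genes, 14 of them above 0.

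At the top of the cascade, all 3 MAP4K genes kept lay under 0, where 50.8% of all genes kept lay above it. MAP4K5, a Ste20-type kinase that feeds the JNK pathway, read 189 with ncRNA and 105 with miR-210, 1.66-fold lower at a log2 ratio of -0.73. MAP4K3, a kinase also known for its part in amino acid sensing by mTORC1, read 448 and 303, a ratio of -0.43. MAP4K4, a Ste20-type kinase with roles in cell migration and JNK signalling, read 388 and 317, a ratio of -0.17. MAP4K5 was further from 0 than the probe SD of 0.44 and the other two were not, where 34.8% of all genes were. MAP4K1, which is best known from blood cells, was under the level filter at 20 and 12.

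Among the MAP3Ks, 5 of 13 genes were kept and none was 1.5-fold apart. MAP3K7 (TAK1), the kinase that relays TGF-beta and interleukin 1 signals, read 324 and 394, the highest ratio of the tier at 0.41. MAP3K5 (ASK1), which answers to oxidative stress, read 251 and 194, the lowest at -0.26. MAP3K11, a mixed-lineage kinase, MAP3K2, an activator of the ERK5 branch, and MAP3K4, an activator of p38 and JNK, lay between them at 0.24, 0.04 and -0.07. All 5 were nearer to 0 than the probe SD, beyond which 34.8% of all genes lay.

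In the MAP2K tier, 3 of the 4 kept genes were at least 1.5-fold apart, where 22.8% of all genes kept were. With an offset of 10 added before log2, MAP2K1 alone was. MAP2K1 (MEK1), an activator of the ERK branch, read 272 with ncRNA and 445 with miR-210, 1.77-fold higher at a log2 ratio of 0.83. It ranked 367 from the highest of the 6681 genes. MAP2K3, which activates p38, read 43 and 61, 1.53-fold higher, but its ncRNA value was close to the array median and the fold was 1.42 on the deposited scale and with the offset. MAP2K5, the kinase of ERK5, read 110 and 67, 1.52-fold lower at -0.61, and 1.46-fold with the offset. MAP2K4, which activates JNK and p38, read 234 and 222; its ratio of 0.03 turned to -0.08 on the deposited scale. MAP2K2 (MEK2), the close relative of MAP2K1, was under the filter at 27 and 24, so the pair could not be compared.

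Of the MAPKs themselves, 6 of 11 were kept. MAPK6 (ERK3), an atypical ERK, read 928 and 783, a ratio of -0.11, and MAPK7 (ERK5) read 37 and 39, a ratio of 0.17, so neither was separated from 0 by the probe SD. MAPK9 (JNK2) read 484 and 477; its ratio of 0.09 turned to -0.02 on the deposited scale. Of the 3 p38 kinases kept, 2 were at least 1.5-fold apart, in opposite directions, where 22.8% of all genes kept were that far apart. The ERK and JNK types had 2 and 1 genes kept, none of them that far apart, and such small classes cannot be told from each other. MAPK13 (p38 delta), which is known for its expression in squamous epithelium, read 436 and 232, 1.73-fold lower at -0.79. MAPK12 (p38 gamma) read 61 and 102, 1.80-fold higher at 0.85. MAPK14 (p38 alpha), the widely expressed form, read 83 and 106, a ratio of 0.47, just beyond the probe SD, and 0.35 on the deposited scale. These 3 ratios kept their signs under every setting that kept the probes. MAPKAPK3, a substrate kinase of p38, read 105 and 120, a ratio of 0.30.

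**Figure D1:**
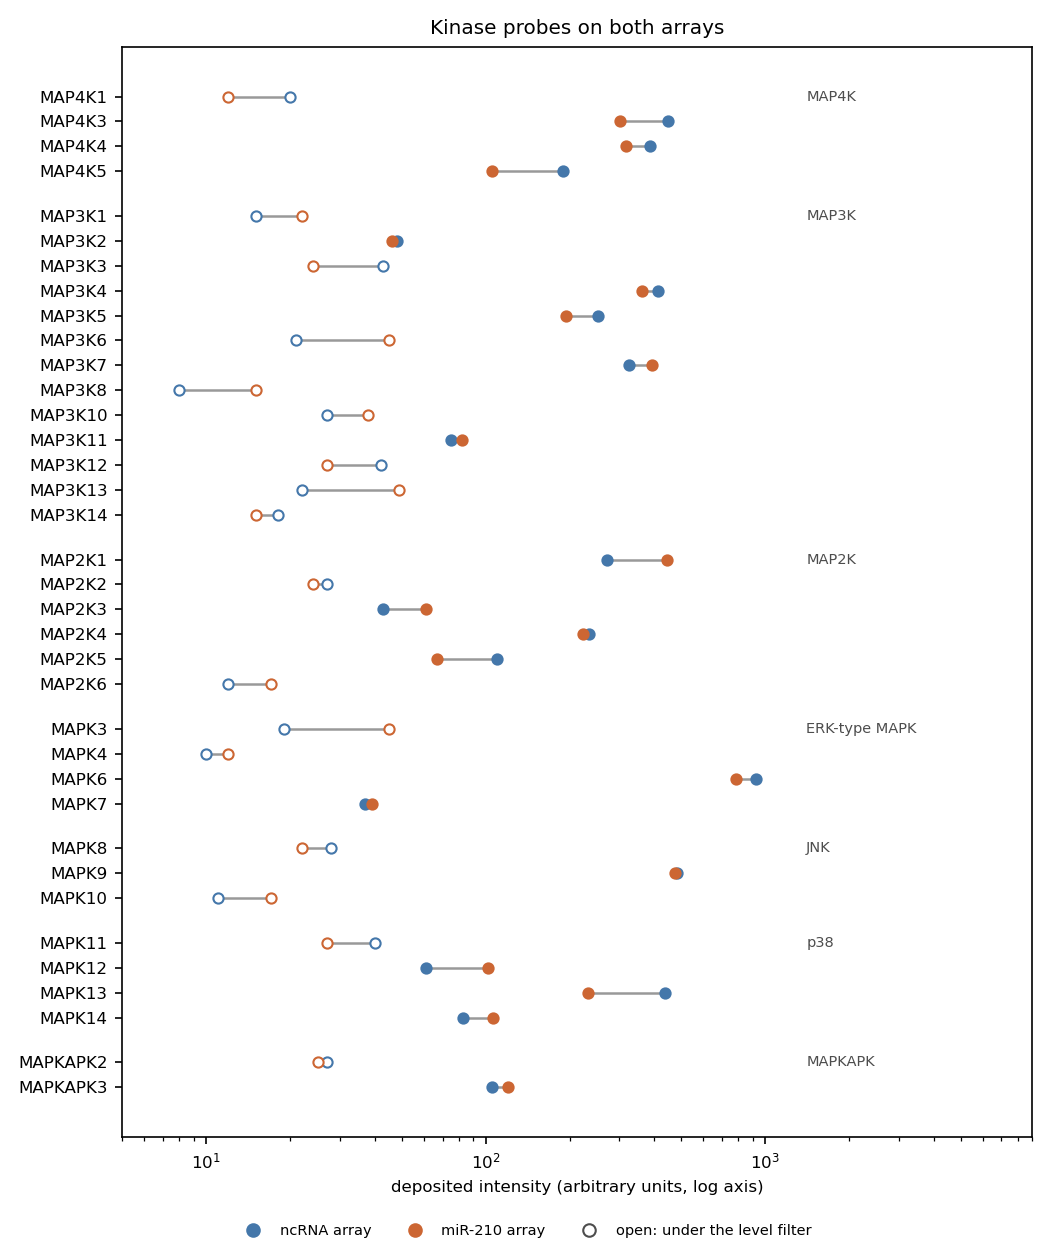
Deposited intensity of each of the 36 kinase probes for ncRNA (blue) and miR-210 (orange), on a log axis, by tier from MAP4K to MAPKAPK; open points are probes under the level filter, and there is 1 array per group with no error bar. MAP4K3, MAP4K4, MAP4K5 and MAPK13 have the miR-210 point to the left, and MAP2K1 and MAPK12 have it to the right.

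A total of 17 kinase genes were under the level filter, with intensities from 8 to 43 after ncRNA and from 12 to 49 after miR-210. Among them were MAPK3 (ERK1), MAPK8 (JNK1), MAPK10 (JNK3) and MAPK11 (p38 beta), so of the JNK genes only MAPK9 was read above the filter. In this range, 9 probes had a ratio above 0 and 8 under it, and 3 were at least 2-fold higher. MAPK3 read 19 and 45, MAP3K13 22 and 49, and MAP3K6 21 and 45. With an offset of 10 before log2 their folds were 1.97, 1.93 and 1.85, all under 2. Without a level filter, 7.08% of 12405 genes passed 2-fold upwards and 6.72% downwards, against 3.02% and 3.17% with it, so dim probes spread more widely in general. The lowest kept member was MAPK7 at 37 and 39, and the highest left out was MAP3K12, an axonal stress kinase, at 42 and 27.

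The MAP kinase phosphatases, the DUSP proteins that dephosphorylate MAPKs and many of which are induced by them, had 7 of 10 genes kept. All but DUSP1 lay above 0, where 50.8% of all genes kept did, and the median log2 ratio was 0.25. These signs held under every setting that kept the genes. DUSP9 and DUSP10 did not pass the level filter at the 75th percentile. DUSP10 (MKP5), which acts on JNK and p38, read 98 with ncRNA and 161 with miR-210, 1.78-fold higher at 0.83. DUSP2 (PAC1), a nuclear phosphatase, read 147 and 237, 1.74-fold higher at 0.80. DUSP5, a nuclear phosphatase specific to ERK, read 410 and 544, a ratio of 0.52. The other members of the family were nearer to 0 than the probe SD. DUSP6 (MKP3), the cytoplasmic phosphatase that is widely used as a readout of ERK activity, read 325 and 354, a ratio of 0.25. DUSP4, a nuclear phosphatase induced by ERK, read 196 and 208, a ratio of 0.20. DUSP9, a relative of DUSP6, read 118 and 121, a ratio of 0.13. DUSP1 (MKP1), an immediate early gene of stress and growth factor signals, read 192 and 170, a ratio of -0.06. Thus 3 of these 7 genes, 42.9%, were beyond the probe SD, where 34.8% of all genes were; on the deposited scale DUSP5 stood at 0.41, inside that SD. DUSP7, DUSP8 and DUSP16 were under the level filter, at 12 and 11, 18 and 10, and 20 and 35.

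The DUSP genes outside that family had 9 of 11 kept and a median of 0.03, with 5 above 0. DUSP12, an atypical phosphatase with a zinc-binding domain, read 261 and 509, 2.10-fold higher at 1.07, rank 166 from the highest. Its fold was 1.95 on the deposited scale, under 2. DUSP24 read 239 and 374, 1.69-fold higher. That name is a synonym of 2 current genes, DUSP26 and STYXL1, so the probe's gene is uncertain, and the inhibitor median was 0.17 without it. DUSP23, a small atypical phosphatase, read 200 and 278, 1.51-fold higher, and 1.39-fold on the deposited scale and 1.49-fold with the offset. On the other side, DUSP22 (JKAP), a phosphatase linked to JNK signalling, read 92 and 50, 1.71-fold lower at -0.77. DUSP3 (VHR), which can dephosphorylate ERK and JNK, read 316 and 202, a ratio of -0.53 that was 1.56-fold on the deposited scale. DUSP13, another old name now shared by DUSP13A and DUSP13B, read 35 and 43, a ratio of 0.40. DUSP14 at -0.09 and DUSP11, an RNA phosphatase, at 0.03 were close to 0; DUSP11 turned to -0.12 on the deposited scale. DUSP15 was the only member with 2 kept probes, which read 105 and 83, and 56 and 44, with ratios of -0.23 and -0.24. The remaining genes, DUSP18 and DUSP19, were under the filter; the probes of DUSP18 read 14 and 8, and 16 and 18, and DUSP19 read 36 and 18.

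Of the Sprouty and SPRED genes, 3 of 5 were kept. SPRED2, which binds RAS and the neurofibromin NF1 and lowers ERK activation, read 454 with ncRNA and 194 with miR-210, 2.15-fold lower at a log2 ratio of -1.11. It stood at rank 174 from the lowest of 6681 genes, and its ratio lay between -1.23 and -1.07 over all settings. SPRY3 read 81 and 41, 1.83-fold lower at -0.87. SPRY2, the best studied Sprouty and a target of ERK signalling, read 61 and 67, a ratio of 0.24 within the probe SD. SPRY1 and SPRY4 were under the filter at 22 and 21, and 31 and 28. Thus the 2 of these genes beyond the probe SD, SPRED2 and SPRY3, were both lower with miR-210. SPRY2, within that SD, lay above 0, as did 6 of the 7 MAP kinase phosphatases kept and 50.8% of all genes. SPRED2 and SPRY3 had 1 probe each, so no second probe checks their ratios.

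**Figure D2:**
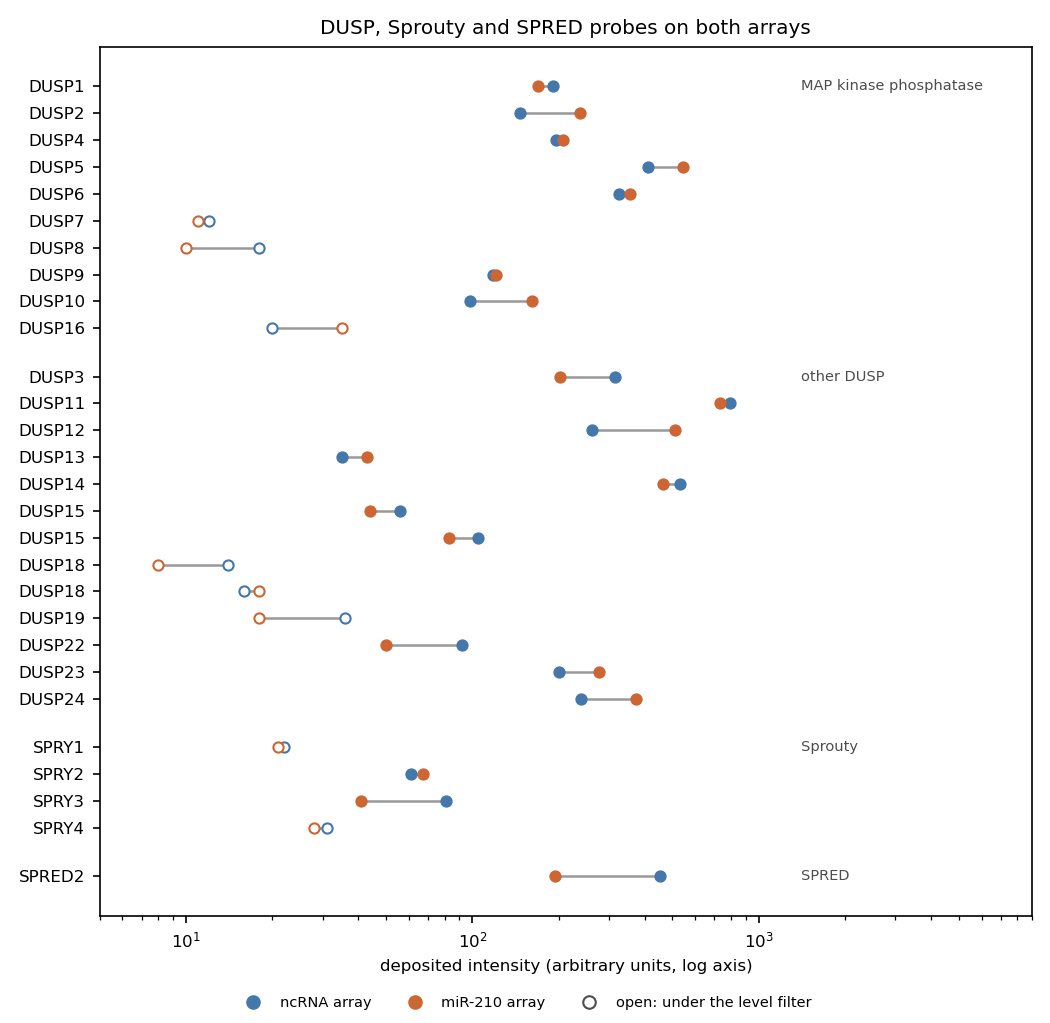
Deposited intensity of each of the 28 DUSP, Sprouty and SPRED probes for ncRNA (blue) and miR-210 (orange), on a log axis, by family; open points are probes under the level filter, and there is 1 array per group with no error bar. DUSP2, DUSP5, DUSP10 and DUSP12 lie to the right on the miR-210 array, and SPRED2, SPRY3, DUSP22 and DUSP3 to the left.

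**Figure D3:**
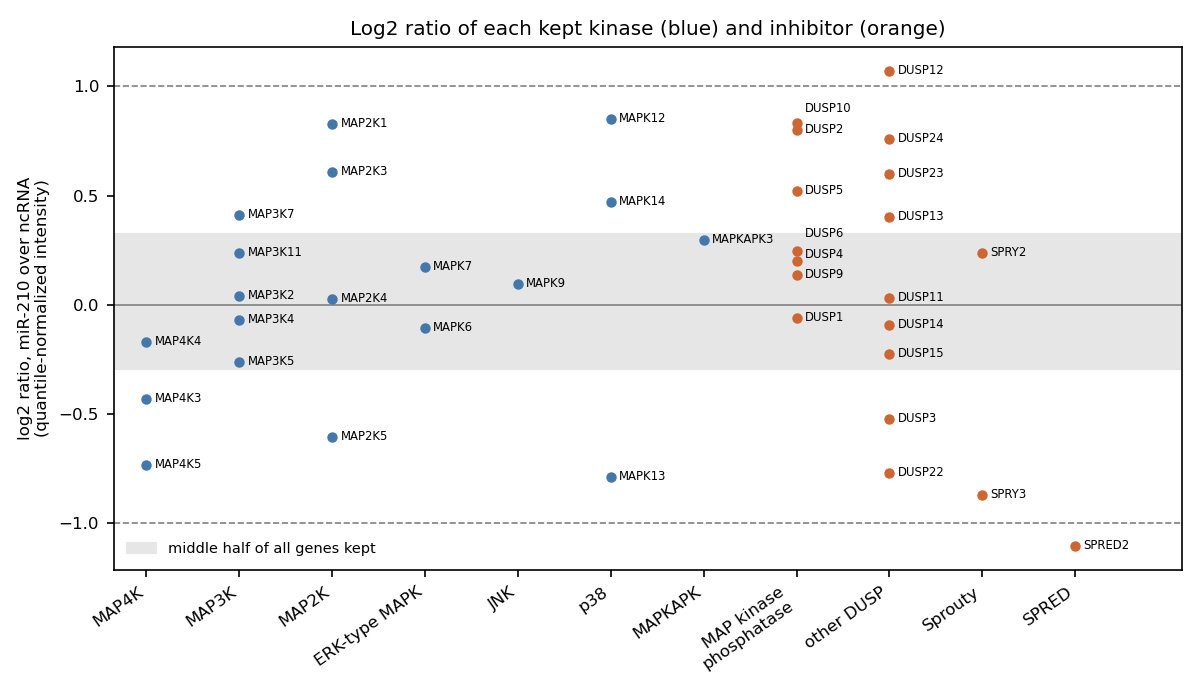
Log2 ratio of miR-210 over ncRNA for the 19 kept kinases (blue) and 19 kept inhibitors (orange) by class; the grey band is the range between the quartiles of all 6681 genes kept, and dashed lines mark 2-fold. DUSP12 is above the upper line, SPRED2 is under the lower line, and the MAP4K genes all lie under 0.

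Promoter windows are shown for DUSP2 and DUSP10, the MAP kinase phosphatases with the highest ratios, for DUSP1, the member of that family with the lowest, and for SPRED2, the lowest inhibitor. The window of DUSP12, the highest inhibitor, is not shown. Each window runs from 250 bases before a RefSeq transcription start to 50 after it, on GRCh38.p14, 5′ to 3′ on the gene's strand. Capitals mark matches on either strand to TGACGTCA (the cAMP response element), TGANTCA (the AP-1 site) or CCGGAAG (an ETS site); no motif contains another.
DUSP1, chr5:172771146-172771445, strand -: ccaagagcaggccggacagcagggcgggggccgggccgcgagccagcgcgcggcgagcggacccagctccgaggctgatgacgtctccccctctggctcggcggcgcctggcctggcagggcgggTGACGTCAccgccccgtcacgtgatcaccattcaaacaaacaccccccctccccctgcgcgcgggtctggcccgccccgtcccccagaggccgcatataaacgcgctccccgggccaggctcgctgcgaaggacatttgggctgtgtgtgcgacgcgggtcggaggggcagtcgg
DUSP2, chr2:96145391-96145690, strand -: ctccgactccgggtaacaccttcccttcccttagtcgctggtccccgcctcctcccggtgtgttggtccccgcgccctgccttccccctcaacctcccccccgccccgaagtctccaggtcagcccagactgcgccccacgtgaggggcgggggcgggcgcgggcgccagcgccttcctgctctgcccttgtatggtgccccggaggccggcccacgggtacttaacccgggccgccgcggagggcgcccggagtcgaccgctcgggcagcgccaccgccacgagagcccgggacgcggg
DUSP10, chr1:221742040-221742339, strand -: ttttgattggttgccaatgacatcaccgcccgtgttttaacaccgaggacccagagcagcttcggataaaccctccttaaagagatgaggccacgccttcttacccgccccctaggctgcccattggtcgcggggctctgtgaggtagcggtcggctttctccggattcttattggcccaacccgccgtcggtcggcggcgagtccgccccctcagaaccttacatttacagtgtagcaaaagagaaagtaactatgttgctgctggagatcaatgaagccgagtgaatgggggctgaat
SPRED2, chr2:65432550-65432849, strand -: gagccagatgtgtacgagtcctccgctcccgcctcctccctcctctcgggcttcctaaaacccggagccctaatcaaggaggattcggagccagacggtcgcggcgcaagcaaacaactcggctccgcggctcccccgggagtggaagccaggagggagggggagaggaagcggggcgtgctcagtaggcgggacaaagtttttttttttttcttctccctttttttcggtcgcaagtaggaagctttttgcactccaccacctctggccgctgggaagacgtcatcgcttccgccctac
SPRED2, chr2:65366729-65367028, strand -: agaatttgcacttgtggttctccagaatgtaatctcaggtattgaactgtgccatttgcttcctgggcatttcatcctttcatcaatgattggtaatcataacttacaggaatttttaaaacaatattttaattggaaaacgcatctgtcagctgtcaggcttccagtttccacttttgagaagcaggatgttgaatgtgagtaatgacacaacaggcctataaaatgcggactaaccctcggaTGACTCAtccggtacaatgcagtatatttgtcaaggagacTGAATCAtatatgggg
The DUSP1 window holds 1 match to TGACGTCA, the second SPRED2 start holds 2 matches to TGANTCA, and the DUSP2, DUSP10 and first SPRED2 windows hold none of the 3 motifs. A second DUSP10 start in the table, at chr1:221736851-221737150, holds none either and is not printed. Over the 86 windows of 58 members found in the table, 5 held TGACGTCA, 5 held TGANTCA and 7 held CCGGAAG. Of all 35116 windows, 1.85%, 7.71% and 10.3% did. These are matches of letters, and none is a measured site.

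Genes around the cascade were read from lists of receptors, adaptors, RAS, RAF and scaffold genes, of kinases that MAPKs phosphorylate, and of ERK target genes. Of 46 upstream genes, 29 had a probe and 21 were kept, 12 above 0, with a median of 0.17. Only RASA2, a GTPase-activating protein for RAS, was 2-fold apart, from 38 to 77, 2.19-fold higher, where 6.20% of all genes kept were 2-fold apart. Its ncRNA value was close to the array median of 39. TRAF6, an adaptor upstream of TAK1, stood at 0.76, FGFR2 at -0.73 and the FGF receptor adaptor FRS3 at 0.71. Of 8 substrate kinases, 6 were kept, 3 above 0, with a median of 0.03 and none 2-fold apart. RPS6KA1 (RSK1), an ERK substrate, read 633 and 349, a ratio of -0.75. MKNK2 stood at 0.48, RPS6KA4 at -0.25 and RPS6KA3 at 0.19.

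Of 47 listed ERK target genes, 43 had a probe and 27 were kept. Not all of the list are transcripts induced by ERK: it also holds ELK4 and SRF, both kept, and ELK1, ELK3 and BCL2L11, not kept. The 27 had a median of 0.12, with 16 above 0 and 11 under it, that is 59.3% above 0 where 50.8% of all genes were. A fold of 2 was passed upwards by 2 of the 27 and downwards by 2, where 3.02% and 3.17% of all genes passed it. That median was -0.029 on the deposited scale, where 12 were above 0. At least 2-fold higher were PLAUR, the urokinase receptor, from 82 to 257 or 3.40-fold, and the AP-1 subunit FOS, from 37 to 71 or 2.06-fold. On the deposited scale FOS stood at a log2 ratio of 0.94, under 2-fold, and its ncRNA value was close to the array median of 39. At least 2-fold lower were ZFP36L1, an RNA-decay factor, from 1391 to 470 or 2.69-fold, and PHLDA2, from 493 to 198 or 2.32-fold. The ETS factors ETV4 and ETV5, transcripts that with DUSP6, SPRY2 and SPRY4 are commonly used to read ERK output, stood at -0.10 and -0.0038. Of these 5 genes, SPRY4 was not kept and none of the other 4 differed from 0 by more than 0.25.

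**Figure D4:**
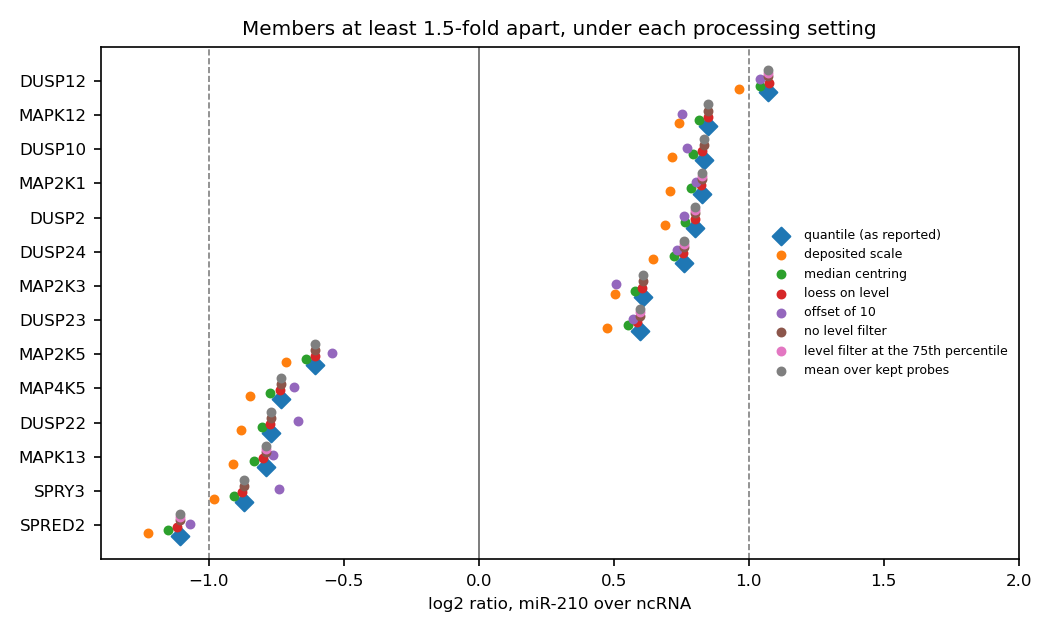
Log2 ratio of the 14 members at least 1.5-fold apart under the reported processing (diamonds) and 7 other settings (circles), with dashed lines at 2-fold; a member dropped by the stricter level filter has no point for it. No member crosses 0, and the deposited scale lies lowest for each of them, taking DUSP12 under 2-fold.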

How the data were processed

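Total RNA of 2 KYSE-170 cultures was measured, 500 ng each made into Cy5-labelled aminoallyl-cRNA and hybridised to 1-colour Toray oligonucleotide arrays, per the labels' protocols. The deposited table holds intensity values of 24267 probes on a linear scale, from -8 to 65496. Values under 0 require that a background was subtracted before deposit. Scanner, background method and normalization between arrays are not stated in these sources. Groups came from the sample titles. The 90 probes not above 0 on both arrays were left out, and log2 values of the other 24177 were quantile normalized with code tested on simulated data (Python 3.11.15, numpy 2.4.6, pandas 2.3.3, statsmodels 0.14.6 for loess).

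Of 13395 probes with a symbol in the platform annotation, 2446 were renamed through a synonym held by a single gene in the RefSeq table of GRCh38.p14. Among the members, C21orf7 became MAP3K7CL and C14orf32 became MAPK1IP1L, while DUSP13 and DUSP24 match no single current gene. Every member could be named; those at least 1.5-fold apart were given singly, as were members that complete a role or have a second probe. Of the upstream, substrate kinase and ERK target lists, genes at least 2-fold apart or the 4 largest were named. Of the cell type markers, those kept and at least 2-fold apart and a few others were named. The members and lists were chosen with earlier results of these data known. Alternatives were the deposited scale, median centring, loess, an offset of 10, other level filters and probe averaging. The number of arrays limits the precision.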

Additional observations from a re-analysis of the deposited data

How the results depend on the processing

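Of the 42 members kept, 37 had the same sign under every alternative that kept them, including all 14 at least 1.5-fold apart. The 5 that changed sign (DUSP11, MAP2K4, MAP3K2, MAP3K7CL and MAPK9) did so on the deposited scale and had ratios of at most 0.09; DUSP11 also did so after median centring. The kinase median was -0.06 on the deposited scale and -0.088 with the filter at the 75th percentile. No inhibitor was 2-fold higher on the deposited scale (0 in place of 1), and the ERK target median was -0.029 there, with all genes shifted down. Without a level filter 3 kinases were 2-fold higher in place of 0, the upstream median was 0.34, and the inhibitor median 0.082 with 14 of 26 above 0. With the filter at the 75th percentile, the upstream, substrate kinase and ERK target medians were -0.16, -0.25 and -0.0038 over 8, 3 and 15 genes; fewer genes entered them. The inhibitor median was 0.17 without DUSP24, an alternative added after seeing the data. No paired analysis was possible because each group has 1 array. Ratios of probes near the median intensity are the least certain, since the arrays give no detection calls here.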

Other observations

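The p38 genes lie in neighbouring pairs among the protein-coding genes of RefSeq (GRCh38.p14), MAPK14 beside MAPK13 and MAPK12 beside MAPK11, and within each pair the ratios had opposite signs. MAPK14 stood at 0.47 and MAPK13 at -0.79. MAPK12 stood at 0.85 and MAPK11, which was under the level filter at 40 and 27, at -0.48. Each of these genes has 1 probe on 1 array per group, and the pairs were picked out after their values were seen.

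Of the 5 member genes that are neither kinases nor inhibitors, 4 were kept, 2 above 0 and 2 under it. Their ratios ran from -0.32 to 0.18, none beyond the probe SD of 0.44, where 34.8% of all genes kept were beyond it. MAPK8IP2, a JNK scaffold, read 489 with ncRNA and 415 with miR-210, at -0.11 on the log2 scale, and MAPK8IP3, a scaffold that also links cargo to kinesin, read 57 and 60, a ratio of 0.18. MAP3K7CL stood at 0.03, or -0.07 on the deposited scale, and MAPK1IP1L at -0.32. MAPK8IP1 had 2 probes, both under the level filter, which disagreed in sign: 23 and 9 with a ratio of -1.33, and 15 and 19 with a ratio of 0.37. With an offset of 10 before log2 the first of these was 1.71-fold lower in place of 2.51-fold.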
